A study of Mus musculus with 12 samples.

Results

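The genes described here are 8 genes of early mesoderm and of vascular progenitor cells, measured in mouse embryonic stem cells: Aplnr, Kdr, Pdgfra, Nrp1, Rgs5, Hand2, Tbx20 and Lmo2. They were chosen by name, from 18193 genes with a symbol of their own on the array, and all 8 were found. Together they have 21 probe sets, of which 18 were bright enough to be tested. Each gene is represented by its brightest probe set over all 12 arrays, and its other probe sets serve as a check.

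The cells were D3, an established mouse embryonic stem cell line, kept for 7 days in serum-containing medium. The 4 conditions, with 3 arrays each, were LIF at 1000 units per ml (called LIF), LIF plus lithium, neither LIF nor lithium (LIF-free), and lithium without LIF (LIF-free plus lithium). LIF is the cytokine that keeps such cells in self-renewal, and lithium inhibits GSK3, a brake on Wnt signalling. The labels give lithium as 50 nM, far below the millimolar range usually applied, and no measure of GSK3 activity was used here. All 4 conditions share the line, the medium with serum and the 7 days. The labels call the replicates biological, and the design text mentions independent experiments without saying how arrays and cultures correspond, so p-values measure the spread between these arrays.

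Mesoderm forms in the primitive streak, and its first progeny include cells with both vascular and cardiac potential. Kdr, the VEGF receptor 2, and Pdgfra, the PDGF receptor alpha, are the surface markers by which such cells are commonly sorted from differentiating stem cells. Aplnr, the apelin and Elabela receptor, and Nrp1, a co-receptor for VEGF and semaphorins, act beside them. Rgs5 shortens G-protein signals and marks pericytes. Hand2 and Tbx20 are transcription factors of lateral and cardiac mesoderm, and Lmo2 bridges transcription factors in blood and endothelial precursors.

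The promoters of 4 of the genes are shown because the data bear on them in pairs: Hand2 and Nrp1 had the most alike patterns of all 28 pairs of the 8 genes, whereas Pdgfra and Kdr are near neighbours on chromosome 5, and Kdr was called on withdrawal with lithium where Pdgfra was not, a difference not itself tested. The RefSeq table (GRCm38.p6) holds 6 of the 8 genes, without Aplnr and Lmo2. The 250 bases before the annotated start are given on the gene's own strand. Capitals mark matches, on either strand, to the motifs searched: TTCNNNGAA for STAT factors, CTTTGA for TCF/LEF, AGGTGT for T-box factors, CATCTG for E-box factors and AGATAA for GATA factors. Each sequence runs 5′ to 3′.
Hand2, chr8:57320733-57320982, plus strand: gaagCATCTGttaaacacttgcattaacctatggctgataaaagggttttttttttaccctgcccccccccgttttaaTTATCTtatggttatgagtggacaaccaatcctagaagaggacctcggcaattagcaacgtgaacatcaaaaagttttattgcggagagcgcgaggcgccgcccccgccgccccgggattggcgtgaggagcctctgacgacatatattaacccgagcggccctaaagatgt
Nrp1, chr8:128358823-128359072, plus strand: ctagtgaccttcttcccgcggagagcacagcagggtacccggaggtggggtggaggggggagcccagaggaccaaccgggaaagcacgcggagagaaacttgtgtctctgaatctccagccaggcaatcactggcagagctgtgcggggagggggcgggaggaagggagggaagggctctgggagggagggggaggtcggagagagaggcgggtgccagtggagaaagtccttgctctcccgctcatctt
Kdr, chr5:75978456-75978705, minus strand: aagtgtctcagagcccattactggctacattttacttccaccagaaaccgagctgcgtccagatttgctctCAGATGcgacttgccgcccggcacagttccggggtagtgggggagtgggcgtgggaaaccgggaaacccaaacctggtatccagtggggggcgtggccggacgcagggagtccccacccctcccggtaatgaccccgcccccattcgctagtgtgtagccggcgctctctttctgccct
Pdgfra, chr5:75152001-75152250, plus strand: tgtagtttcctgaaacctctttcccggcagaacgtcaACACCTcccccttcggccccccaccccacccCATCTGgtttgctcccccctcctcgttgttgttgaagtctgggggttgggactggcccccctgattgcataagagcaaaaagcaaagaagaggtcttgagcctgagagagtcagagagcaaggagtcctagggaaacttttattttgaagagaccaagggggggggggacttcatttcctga

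The E-box letters occurred in 3 of the 6 windows (Hand2, Kdr and Pdgfra) and in 14.4% of all 32851 windows of the table. GATA letters occurred in Hand2 and Rgs5 and in 9.99% of all windows. TCF/LEF letters occurred in Rgs5 alone of the 6 (13.8% of all windows), T-box letters in Pdgfra alone (11.8%), and STAT letters in none (7.02%). Nrp1 and Tbx20 held no match. These matches describe the letters and locate no binding.

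Values are MAS5 signals per probe set on a linear scale, with values under 1 set to 1, called the floor here. Array medians lay between 10.5 and 19.3, and the lowest were those of LIF plus lithium replicates 3 (10.5) and 2 (12). Across genes on the array, r between arrays taken in pairs lay between 0.875 and 0.953. The Gapdh 3′ to 5′ ratio ran from 0.798 to 0.86 on the 6 arrays with LIF and from 0.739 to 0.802 on the 6 without. Its part in the results was not tested. A probe set was tested with limma where its mean signal over all arrays passed 7.52, and a call is an adjusted p under 0.05. For 5 of the 8 genes (Aplnr, Kdr, Rgs5, Hand2 and Lmo2) the mean (of log2 values) over the 6 arrays with LIF lay under that level, so they were tested only because their signals without LIF were high. Counts of called genes are therefore a description of the 8, and give no support beyond the single tests.

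**Figure D1:**
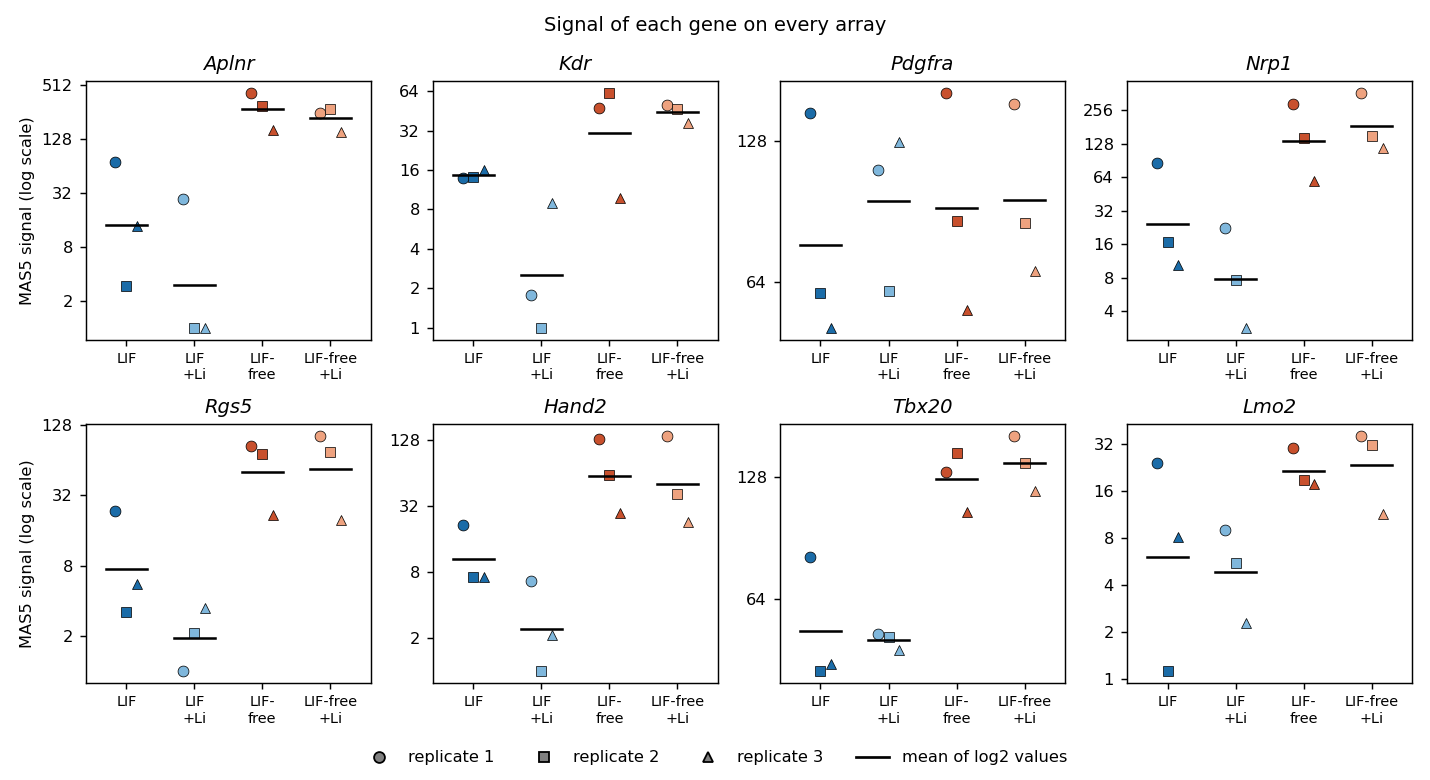
MAS5 signal (log scale) of the brightest probe set of each gene on all 12 arrays, by condition; symbols are replicate numbers and bars the means of log2 values. Without lithium, the LIF-free values lie above the LIF values in Aplnr, Hand2 and Tbx20, as in 13.8% of tested probe sets. The Pdgfra values overlap between all conditions.

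Withdrawal of LIF was examined on separate arrays without and with lithium. Aplnr and Tbx20 rose in both. Nrp1, Rgs5 and Hand2 rose with lithium, and without it when the replicate number was a block. That block was fitted over all conditions together, including the lithium-treated pair, whose replicate numbers did not pass the pairing check. It is therefore not a paired test of LIF-free against LIF cultures alone. Kdr rose in the lithium-treated cultures. Pdgfra was not called in either withdrawal. Averaged over both, 7 of the 8 genes rose and none fell. Their average log2 changes ran from 1.36 (Tbx20) to 5.24 (Aplnr), sizes that rest in part on LIF signals near the floor: with 16 signal units added before the log, Tbx20 changed by 1.13, Aplnr by 3.20 and Lmo2, the smallest of the 7, by 0.74. For the average contrast, 13.9% of the 27022 tested probe sets were called higher and 10.8% lower.

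Aplnr signals were 70.6, 2.96 and 13.9 with LIF and 424, 304 and 163 in LIF-free cultures. With lithium they were 27.3 and at the floor of 1 on 2 arrays when LIF was present, and 250.4, 276 and 156 when it was absent. All 6 LIF-free values exceeded all 6 LIF values, and the highest LIF value belonged to replicate 1. The log2 change was 4.27 ± 1.19 (SE, n = 3 arrays per condition) without lithium, adjusted p = 0.0402, and 6.20 ± 1.19 with lithium, adjusted p = 0.00572. The sizes rest on LIF values near the floor: with 16 signal units added before the log they were 3.00 and 3.40. The call without lithium ended when any LIF-free array, any LIF-free plus lithium array, or LIF replicate 2 or 3 was left out (highest adjusted p = 0.161). With lithium it held with any array left out (highest adjusted p = 0.0342). The second Aplnr probe set, dimmer, was called with lithium (log2 change 2.51, adjusted p = 0.0338) and not without it (log2 change 0.83, adjusted p = 0.519).

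Kdr signals were 14, 14.1 and 16 with LIF and 47.3, 62.1 and 9.71 in LIF-free cultures. LIF-free replicate 3 lay below every LIF array, and the change did not pass (log2 change 1.06, 95% interval -0.60 to 2.72, adjusted p = 0.442; 0.369 with the replicate number as a block). With lithium, Kdr was 1.79, 1 (the floor) and 9.02 in LIF cultures and 50.4, 46.6 and 36.7 in LIF-free cultures. Here the values did not overlap, and Kdr rose (log2 change 4.13 ± 0.77, adjusted p = 0.00483). The added 16 units reduced that change to 1.63 (adjusted p = 0.00648). Its call held with any array left out (highest adjusted p = 0.025). Kdr has 1 probe set, so no other set checks it.

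Nrp1 signals were 85.5, 16.6 and 10.4 with LIF and 290.4, 144 and 59.7 without. Replicate 3 without LIF was below replicate 1 with LIF, so the groups overlapped by that pair. The change did not pass in the unpaired fit (log2 change 2.47 ± 0.85, adjusted p = 0.0883) and passed with the replicate block (SE 0.29, adjusted p = 0.000106). With lithium the signals were 22.4, 7.58 and 2.84 against 367, 150.0 and 117. These did not overlap (log2 change 4.57 ± 0.85, adjusted p = 0.00493). With 16 units added the log2 changes were 1.80 without and 2.98 with lithium. Of the 4 Nrp1 probe sets, all changed upward in both comparisons, with 1 called without lithium and 3 with it.

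Rgs5 signals were 23.4, 3.18 and 5.57 with LIF and 84.6, 71.6 and 21.8 without. LIF-free replicate 3 again fell just below LIF replicate 1, and the unpaired test missed the threshold (log2 change 2.77 ± 0.83, adjusted p = 0.0532; 0.0183 with the replicate block). In lithium the values were 1 (the floor), 2.1 and 3.45 against 103, 75.7 and 19.7. Rgs5 rose there without overlap (log2 change 4.79 ± 0.83, adjusted p = 0.00343). With 16 units added the log2 changes were 1.45 without and 2.02 with lithium. An Rgs5 probe set whose name marks probes shared with other genes did not follow: its log2 change was -0.52 without lithium (adjusted p = 0.733) and 1.70 with it (adjusted p = 0.17), while a further set was called with lithium (log2 change 4.67, adjusted p = 0.00805).

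Among the transcription factors, Hand2 signals were 21.6, 7.26 and 7.18 with LIF and 131, 61.1 and 27.4 without. The groups did not overlap, yet the unpaired test gave adjusted p = 0.0711 (log2 change 2.53 ± 0.82), against 0.00105 with the replicate block. With lithium they were 6.62, 1 (the floor) and 2.12 against 139, 41.2 and 22.7 (log2 change 4.39 ± 0.82, adjusted p = 0.00491). With 16 units added the log2 changes were 1.53 without and 1.88 with lithium. Its other probe sets were too dim to be tested.

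Tbx20 was the steadiest of the genes. Its signals were 81.2, 42.3 and 44.1 with LIF and 132, 147 and 105 without. With lithium they were 52.3, 51.4 and 47.7 against 162, 139 and 118. The log2 changes, 1.25 ± 0.25 (adjusted p = 0.00874) and 1.46 ± 0.25 (adjusted p = 0.00323), held with any array left out (highest adjusted p = 0.0485 and 0.0185). Of its 3 probe sets, each had a positive change in both comparisons and 1 was called in each. The dimmest set changed by only 0.09 with lithium (95% interval -1.59 to 1.77, adjusted p = 0.959), so it shows no rise there.

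Lmo2 signals were low throughout, at 24.1, 1.13 and 8.14 with LIF and 29.8, 18.8 and 17.6 without. With lithium they were 8.99, 5.52 and 2.3 against 35.8, 31.2 and 11.4, which did not overlap. Neither change was called alone (log2 change 1.82, adjusted p = 0.246; log2 change 2.27, adjusted p = 0.129). With 16 units added the log2 changes were 0.56 and 0.92. The average over both was called (log2 change 2.04 ± 0.65, adjusted p = 0.0349). With lithium it passed when LIF replicate 2 was left out (adjusted p = 0.0403). The averaged call ended without any 1 LIF-free array, LIF-free plus lithium replicate 1 or 2, LIF plus lithium replicate 2 or 3, or LIF replicate 2 (highest adjusted p = 0.0853).

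Pdgfra signals were 147, 60.5 and 51.1 with LIF, 111, 61.2 and 127 with LIF plus lithium, 162, 86.2 and 55.7 without LIF, and 153, 85.3 and 67.5 without LIF but with lithium. All 4 ranges overlapped. The average log2 change was 0.13 with a 95% interval from -0.58 to 0.85 (adjusted p = 0.823), which leaves room for a log2 rise of up to 0.85. None of the 3 Pdgfra probe sets was called in any comparison.

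Counted together, 2 of the 8 genes (Aplnr and Tbx20) were called higher without lithium, where 5.40% of tested probe sets were, and 5 of the 8 with the replicate block, where 10.0% were. Leaving out LIF replicate 1, the highest LIF array in 7 of the 8, raised the unpaired count to 6. Nrp1 (adjusted p = 0.0143), Rgs5 (0.0109), Hand2 (0.0363) and Lmo2 (0.045) passed too. The calls over all 27022 probe sets, in either direction, rose as well, from 2515 to 3950. Leaving out LIF plus lithium replicate 1 gave 4, with Rgs5 and Hand2, whereas any of 6 other arrays left Tbx20 as the only call. With lithium 6 were called higher, against 7.53% of probe sets. Values did not overlap between groups in 3 genes without lithium (13.8% of probe sets, higher direction) and in 7 with it (19.9%). The median log2 change of the 8 was 2.15 without lithium and 4.26 with it, beside -0.07 and 0.11 over all tested probe sets. Because 5 of the 8 were tested only through their LIF-free signals, these medians are a description, as the counts are. After centring arrays on their medians, 83.1% of all calls were higher without lithium (58.0% before) and 34.8% with it (60.4% before). Centring gave 5 and 6 called genes of the 8, where 1560 and 1490 of all probe sets were called in either direction.

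**Figure D2:**
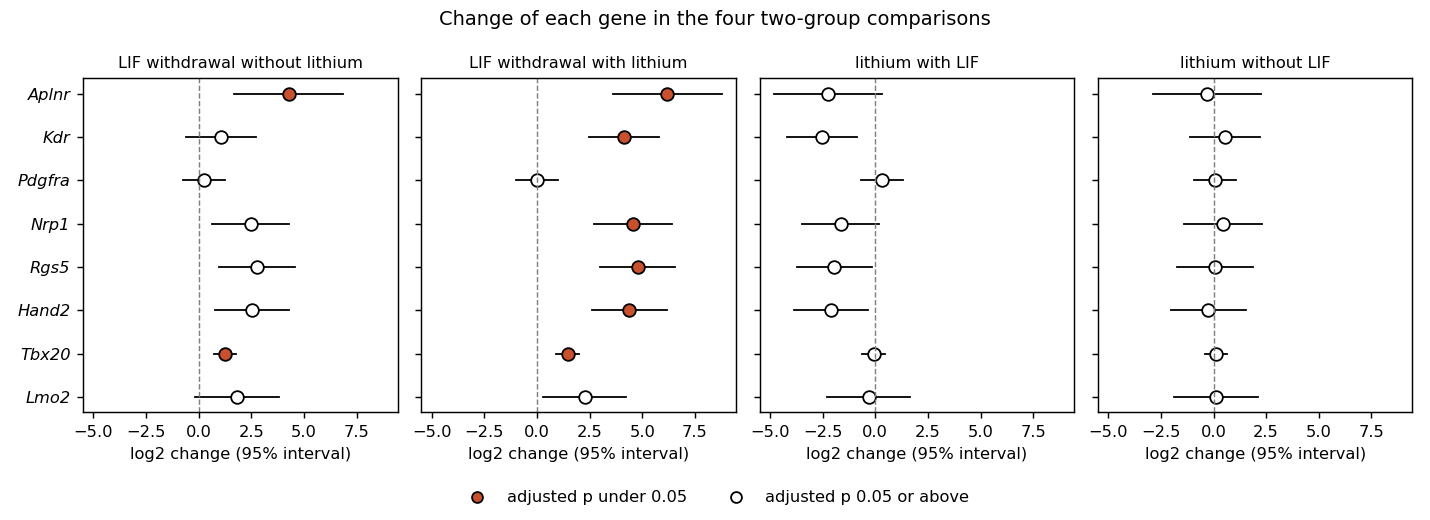
Log2 change with its 95% interval for each gene in the 4 two-group comparisons; filled points passed an adjusted p of 0.05. Calls lie in the withdrawal panels only, 2 without and 6 with lithium, and the Pdgfra interval spans 0 in every panel.

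The next comparison was lithium against no lithium in cultures with LIF. No gene was called, in the 8 or among all 27022 probe sets (limma; 749, or 2.77%, at an unadjusted p under 0.05, and 0 called with the replicate block). The log2 changes of 7 of the 8 genes were negative as deposited. The 3 with an unadjusted p under 0.05 were Kdr (log2 change -2.54, 95% interval -4.20 to -0.88, adjusted p = 0.999), Hand2 (log2 change -2.11, adjusted p = 0.999) and Rgs5 (log2 change -1.94, adjusted p = 0.999). Among all probe sets 2.38% were lower at that unadjusted threshold. Kdr and Hand2 values did not overlap between these groups, as in 5.08% of probe sets in the lower direction. These differences lie between signals of 23.4 and the floor. The LIF plus lithium arrays 2 and 3 also had the lowest medians of all, whose part in the differences was not tested. Centring each array on its median, which moved the median change of all probe sets from -0.08 to 0.29, turned Tbx20 and Lmo2 to positive values and left Kdr, Hand2, Rgs5, Nrp1 and Aplnr negative.

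Lithium in LIF-free cultures left every one of the 8 uncalled, with log2 changes from -0.32 (Aplnr) to 0.53 (Kdr). Across all probe sets limma called 0 here, with 347 (1.28%) at an unadjusted p under 0.05, none of them among the 8, and 0 with the replicate block. The intervals remained wide: for Aplnr the interval was -2.89 to 2.25, and for Tbx20, the tightest, -0.41 to 0.66. The log2 changes under LIF withdrawal were larger with lithium than without in 7 of the 8 genes, but that difference was not called for any gene (interaction, 0 of 27022 probe sets called by limma, 666, or 2.46%, at an unadjusted p under 0.05 and 0 with the replicate block). The sign turned for Tbx20 and Lmo2 after median centring. Kdr had the smallest p of the 8 (interaction log2 3.07, 95% interval 0.72 to 5.41, adjusted p = 0.999). Hence the rise of Kdr in lithium-treated cultures, and not in the others, is not shown to differ between them.

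The genes around these receptors and factors were taken from fixed lists. All lists and members were measured in bulk RNA, where fewer cells of a type and less RNA per cell cannot be told apart. Among ligands and co-receptors, 7 of 21 tested genes rose and 4 fell in the average withdrawal contrast (median log2 change 0.25, against 0.02 over all probe sets). Over all probe sets 13.9% were called higher and 10.8% lower. Kitl, the ligand of Kit, rose from 55.9 ± 56.5 to 291 ± 74.1 (mean ± SD, n = 3 arrays per condition, LIF and LIF-free without lithium; average log2 change 2.71, adjusted p = 0.000333). Vegfc, a growth factor of lymphatic vessels, fell from 154 ± 5.69 to 67.4 ± 3.55 (average log2 change -1.29, adjusted p = 0.000107). Apela, which encodes the Elabela ligand of Aplnr, fell from 485 ± 76.7 to 301 ± 25.4 (average log2 change -0.78, adjusted p = 0.000842). Pdgfc, a PDGF receptor ligand, fell on average (log2 change -0.96, adjusted p = 0.00189) and in the lithium-treated withdrawal (log2 change -1.23, adjusted p = 0.00808). Without lithium its fall was not called (log2 change -0.68, adjusted p = 0.111). Its mean signal was 232 with LIF and 359.5 with LIF plus lithium. The others that rose on average were Sema3c (log2 change 1.79, adjusted p = 0.00109), Nrp2 (1.32, 0.00711), Plxna1 (0.46, 0.00932), Flt1 (1.03, 0.0104), Pdgfb (0.86, 0.0141) and Sema3f (1.24, 0.0398). Kit, described below, also fell. These genes were named after their values were seen, to complete the called genes of the list. Without lithium 2 of the 21 rose and 2 fell (4 and 4 with the block), where 2515 of all 27022 probe sets were called, 58.0% of them higher. With lithium 4 rose and 3 fell, where 3368 probe sets were called, 60.4% of them higher.

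Of 15 tested nascent mesoderm genes, 11 rose and 0 fell on average (median log2 change 1.47), where 13.9% of all probe sets were called higher and 10.8% lower. For 4 of the 15 (Mixl1, Msgn1, Evx1 and Fgf8) the mean with LIF lay under the filter, so they were tested only through their LIF-free signals, and 3 of these 4 are among the 11. The count is a description for that reason. Evx1, a homeobox factor of the streak (average log2 change 3.65, adjusted p = 0.00151), Fgf8, a growth factor needed for cells to leave the streak (average log2 change 3.56, adjusted p = 0.00168) and Cdx2, a caudal factor of posterior mesoderm and trophoblast (average log2 change 1.92, adjusted p = 0.0017), had the smallest p. Without lithium 3 rose (8 with the block), where 5.40% of all probe sets were called higher (10.0% with the block). Among the 3 was Snai2, a repressor of epithelial genes (log2 change 1.98, adjusted p = 0.0439). With lithium 8 rose, where 7.53% of all probe sets were called higher. Among the 8 was Snai1, a repressor of the same family (log2 change 1.71, adjusted p = 0.00539). Without lithium Snai1 was not called (log2 change 0.22, adjusted p = 0.739). Its mean signal was 24 with LIF and 10.2 with LIF plus lithium. The Evx1 and Snai2 calls without lithium each ended on leaving out any of 7 arrays.

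Of 19 tested genes of endothelium and blood, 3 rose and 5 fell on average (median log2 change -0.29), beside the same 13.9% higher and 10.8% lower over all probe sets. No test set this list against another. A further 11, among them Tal1, Fli1, Erg, Lyl1 and Tie1, were too dim to be tested. Vwf, a clotting glycoprotein of endothelium, fell from 40.6 ± 21.1 to 5.19 ± 1.6 (average log2 change -2.50, adjusted p = 0.00025). Its mean without LIF lay under the filter, so Vwf was tested only because its signals with LIF were high. It is 1 of the 5 that fell, and that count is a description. Pecam1, an adhesion molecule of endothelium that mouse embryonic stem cells also carry, fell from 129 ± 48.1 to 35.5 ± 10.3 (average log2 change -2.05, adjusted p = 0.000518). Hhex, a homeobox factor of endoderm and blood vessels, fell as well (average log2 change -0.88, adjusted p = 0.00176). The other two that fell were Eng, a TGF-beta co-receptor (average log2 change -1.09, adjusted p = 0.0087), and Plvap, a protein of endothelial diaphragms (average log2 change -1.67, adjusted p = 0.0136). The 3 that rose were Gata2, a factor of blood precursors (average log2 change 1.07, adjusted p = 0.00273), Lmo4, a relative of Lmo2 (average log2 change 0.80, adjusted p = 0.00222), and Sox17, a factor of endoderm and endothelium (average log2 change 0.81, adjusted p = 0.00823). Eng, Plvap and these 3 were named after their values were seen, to complete the called genes of the list.

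In the list of cardiac and lateral mesoderm, 5 of 18 tested genes rose and 2 fell on average (median log2 change 0.57). Over all probe sets 13.9% were called higher and 10.8% lower. For 3 of the 18 (Tbx1, Mef2c and Myh7) the mean with LIF lay under the filter, so they were tested only through their LIF-free signals. Myh7 is among the 5 that rose (average log2 change 2.02, adjusted p = 0.0101). It was called with lithium (log2 change 3.78, adjusted p = 0.00494) and not without it (log2 change 0.26, adjusted p = 0.867). Its mean signal with LIF plus lithium was only 2.53. Bmp2, a ligand that induces heart mesoderm, rose from 34.8 ± 40 to 210.5 ± 55.1 (average log2 change 3.50, adjusted p = 0.00022). Myl4, an atrial myosin light chain, rose (average log2 change 0.71, adjusted p = 0.00362), and Tbx3, a T-box factor also active in naive stem cells, fell (average log2 change -1.25, adjusted p = 7.11e-05). The other that fell was Myl7, also an atrial myosin light chain (average log2 change -0.97, adjusted p = 0.0182), so Myl4 and Myl7 moved in opposite directions. Myl7 was named after its values were seen, to complete the genes that fell. Among pericyte and mural genes, where Rgs5 is a marker, 1 of 8 tested rose and 1 fell, beside the same 13.9% higher and 10.8% lower over all probe sets. Tagln, a smooth muscle actin-binding protein, rose (average log2 change 0.89, adjusted p = 0.0167), and Mcam, an adhesion molecule of pericytes and endothelium, fell (average log2 change -1.95, adjusted p = 4.1e-05). Abcc9, Kcnj8 and Rgs4, further pericyte markers, were too dim to be tested.

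Markers of other cell types moved with LIF too, where 13.9% of all probe sets were called higher and 10.8% lower on average. Of 10 embryonic stem cell markers, 9 fell on average, with the smallest p in Klf4 (average log2 change -2.25, adjusted p = 1.36e-05), Tdgf1 (average log2 change -1.89, adjusted p = 1.69e-05) and Zfp42 (average log2 change -1.25, adjusted p = 2.91e-05). Their summed signal was 19695 to 31176 with LIF, 23243 to 24405 with LIF plus lithium, 12024 to 15067 without LIF and 9824 to 14656 without LIF but with lithium. Dppa5a, the marker that was not called, made up much of the sums without LIF (mean signal 6639 ± 874 SD without lithium, n = 3 arrays). Of 7 tested fibroblast and feeder cell markers, 5 rose and 1 fell, with the smallest p among those that rose in Col5a1, Twist2 and Col3a1 (average log2 changes 1.89, 2.36 and 2.0, adjusted p = 0.000156, 0.00392 and 0.00435). Their summed signal was 108 to 276 with LIF, 89.8 to 171 with LIF plus lithium, 284 to 449 without LIF and 300.3 to 553 without LIF but with lithium, and 3 of the 5 that rose (Col1a1, Postn and Twist2) had a mean with LIF under the filter. Lum, Dcn, Fap, S100a4 and Prrx1 were too dim to be tested. Of 14 extraembryonic endoderm markers, a lineage that also carries Pdgfra, 6 rose and 2 fell, with Foxa2 (average log2 change 1.46, adjusted p = 0.00033) and Sparc (average log2 change 0.75, adjusted p = 0.000692) higher and Lama1 lower (average log2 change -1.07, adjusted p = 0.00182). Ttr, 1 of the 6 that rose, had a mean with LIF under the filter. The summed signal of the 14 was 3258 to 4531 with LIF, 3475 to 4979 with LIF plus lithium, 5354 to 5628 without LIF and 4997 to 5603 without LIF but with lithium. The part of these cell types in the changes of the 8 genes was not tested.

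**Figure D3:**
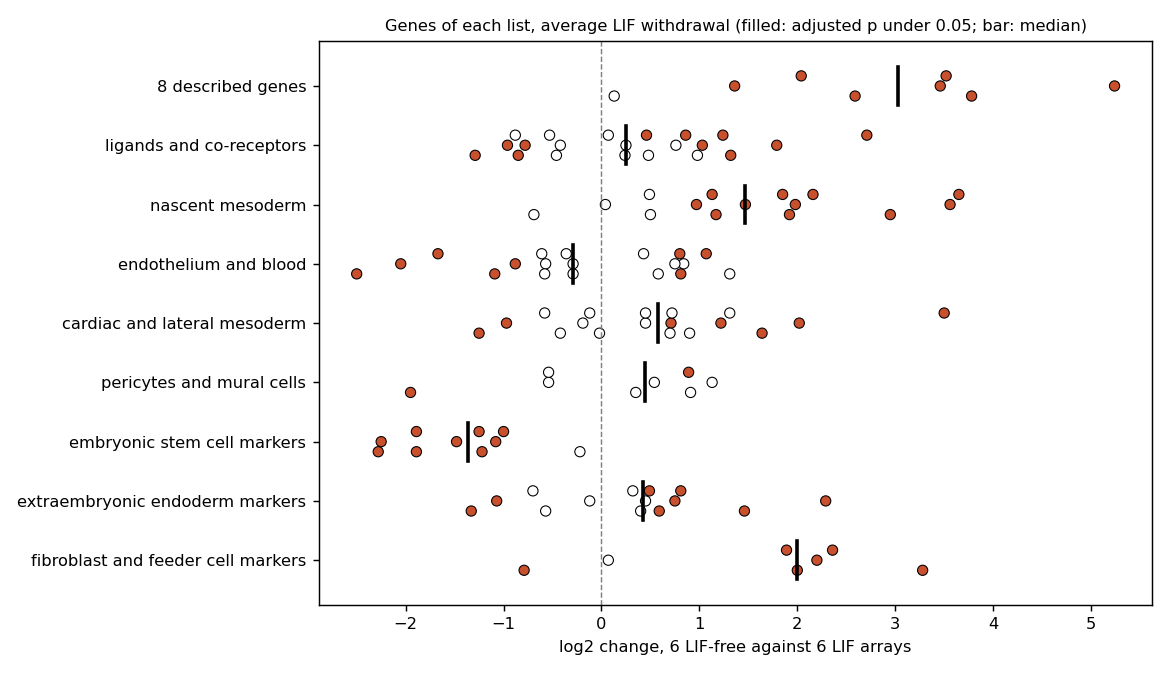
Log2 change of every tested gene of each list in the average LIF withdrawal, 6 LIF-free against 6 LIF arrays; filled points passed an adjusted p of 0.05 and bars are list medians. The median is 3.03 for the 8 genes, 1.47 for nascent mesoderm and -0.29 for endothelium and blood. Of the 8 genes 5, and of the nascent mesoderm genes 4, were tested only through their LIF-free signals. Vwf was tested only through its signals with LIF. These medians are therefore a description.

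Pdgfra, Kit and Kdr lie next to each other in that order among protein-coding genes of chromosome 5, and encode receptor tyrosine kinases. Kit, the receptor of Kitl, was looked at for its position after its values were known. Its signals were 134, 217 and 256 with LIF and 105, 116 and 115 without, and 214, 263 and 228 against 80.6, 129 and 190.4 with lithium. Kit fell on average (log2 change -0.85 ± 0.20, adjusted p = 0.00795). In the separate comparisons it was not called (adjusted p = 0.0975 without and 0.0566 with lithium). With the replicate block both passed (adjusted p = 0.013 without and 0.00573 with lithium). The average log2 changes of the 3 neighbours were thus 0.13 for Pdgfra, -0.85 for Kit and 2.59 for Kdr, and no test between them was made.

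**Figure D4:**
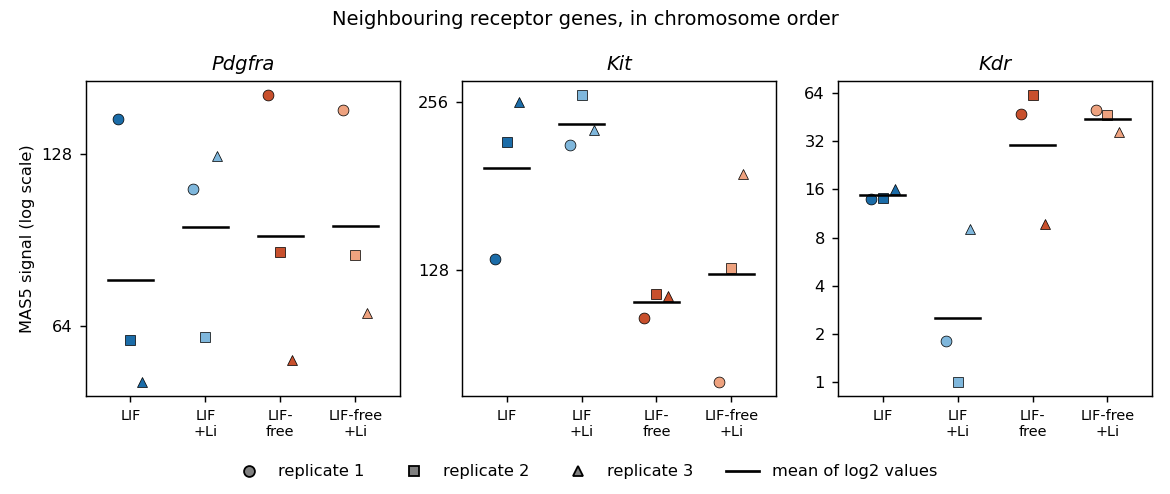
MAS5 signal (log scale) of Pdgfra, Kit and Kdr on all 12 arrays, by condition; symbols are replicate numbers and bars the means of log2 values. Pdgfra overlaps between all conditions, Kit values with LIF (134 to 263) lie mostly above those without (80.6 to 190.4), and Kdr is highest on LIF-free arrays apart from LIF-free replicate 3 (9.71).

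Likeness of patterns was measured as the root mean square (RMS) difference of log2 values over the 12 arrays after subtracting each gene's own mean. Within the 8, Nrp1 and Hand2 were closest (0.69) and Aplnr and Pdgfra farthest apart (3.00). Over 12208 other genes, those most like Nrp1 were the N-cadherin gene Cdh2 (0.54), the Wnt amplifier Rspo3 (0.56) and the protocadherin Pcdh7 (0.67), where the median gene differed by 2.16. Hand2 was closest to Nrp1, then to Cdh2 (0.78) and the RNA-binding protein gene Rbms3 (0.78). Rgs5 was nearest to Rbms3 (0.61), Amer3 (0.64) and Lhx1 (0.73), and Aplnr to Rspo3 (0.98), the cadherin gene Cdh11 (1.01) and Fgf8 (1.17). Kdr was nearest to Tmem119 (0.74), Lgals3bp (0.89) and Rbms3 (0.90), and Lmo2 to the chemokine gene Cxcl12 (0.59), Thsd4 (0.60) and Sdk2 (0.60). Tbx20 had the closest neighbours, Rnf128 (0.13), Sema4c (0.14) and Gng12 (0.15), against a median of 0.79. Pdgfra was nearest to Bmper (0.32), Adamts9 (0.33) and Oip5os1 (0.33), against a median of 0.71. A gene that varies little has small differences from many genes, so these values are read only against the median of the same gene.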

How the data were processed

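RNA of 12 D3 cultures was measured on Affymetrix mouse arrays. The deposited values are linear signal intensities, 1 per probe set, and MAS5 is the tool that the submitters' processing notes name. Its version is not given in the sources used here. The table holds 45101 probe sets, of which 64 controls were left out; 34945 have 1 gene symbol in the platform annotation, 932 several and 9160 none. Values under 1 were set to 1 (0.146% of those tested) and log2 was taken. The 27022 probe sets with a mean above the 40th percentile were tested in one model with a mean per condition (limma 3.58.1, run in R 4.3.3, using eBayes and allowing the variance to follow intensity, with 8 residual degrees of freedom), adjusted by Benjamini-Hochberg, two-sided. Precision is limited by 3 arrays per condition: 95% intervals of log2 changes reached 0.626 to either side at the median, and 3 arrays against 3 cannot reach significance by permutation alone. The average contrast uses the arrays of both withdrawals. The script was tested on simulated data.

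Genes that are no members were taken at their brightest tested probe set. Of each list, up to 3 called genes with the smallest p are named for the average contrast and up to 2 for the separate withdrawals, some shown by their average only; for the lithium contrasts, where no gene was called, list genes are not printed. The 8 genes, the lists and the motifs were chosen with earlier results of these data known.

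Pairing by replicate number was checked by correlating residuals of equal numbers across probe sets, and accepted where all 3 passed 0.1. For replicates 1, 2 and 3 they were 0.438, 0.137 and 0.339 for withdrawal without lithium, 0.499, 0.139 and 0.321 for lithium given with LIF, and 0.462, 0.111 and 0.3 for lithium given without it, which count as paired. Between the lithium-treated conditions they were 0.451, 0.0972 and 0.379, which do not. The replicate block was nevertheless fitted over all conditions in one model, with 6 residual degrees of freedom. Its standard errors and p-values for every comparison thus draw also on conditions that do not count as paired. No fit paired the LIF and LIF-free arrays alone. Alternatives were quantile normalisation, median centring, 16 units added before the log, all probe sets kept, only those above the 60th percentile kept, pairing by replicate block, no trend, array weights, the compared conditions alone, a gene averaged over its probe sets and each array left out.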

Additional observations from a re-analysis of the deposited data

How the results depend on the processing

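The number of the 8 genes called on LIF withdrawal without lithium depended most on the settings. It was 2 as reported, where 2515 of 27022 probe sets were called in either direction. It was 6 with array weights (7870 probe sets called), 5 with median centring (1560), 5 with the replicate block (5260) and 4 with quantile normalisation (2753). It was 1 with no intensity trend (1674), with no filter or with the mean over probe sets. It ran from 1 to 6 with 1 array left out, and was 6 without LIF replicate 1, 4 without LIF plus lithium replicate 1, and 1 without LIF replicate 2 or 3, LIF-free replicate 1 or 2, or LIF-free plus lithium replicate 1 or 2. With lithium 6 were called, and 6 to 7 with 1 array left out. The replicate block gave 7 with lithium, where replicate 2 alone missed the pairing level of 0.1 (0.0972). The filter at the 60th percentile gave 3 there and 3 in the average contrast (7 as reported, 6 to 7 with 1 array left out), because fewer of the genes passed it. No lithium or interaction call arose for the 8 under any alternative.

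Counts of called probe sets moved too. Without lithium they were 2515 as reported, 7870 with array weights, 5260 with the replicate block, 1674 with no trend, 1560 after median centring, 1168 with the compared conditions alone and 1039 to 3950 with 1 array left out. With lithium they were 3368, 6887 with array weights, 5938 with the replicate block, 1490 after centring and 1360 to 4311 with 1 array left out, and for the average 6678, 10859 with array weights and 3690 after centring.

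Signs turned only in values that were not called. For Pdgfra on withdrawal with lithium, the log2 change was -0.33 after centring and -0.07 after quantile normalisation, and with 1 array left out it ran from -0.33 to 0.26 (-0.15 to 0.72 without lithium, -0.07 to 0.37 on average). For lithium with LIF, Tbx20 turned to 0.17 with array weights, 0.06 with the mean over probe sets, 0.29 after centring and 0.03 after quantile normalisation (-0.25 to 0.22 with 1 array left out), and Lmo2 to 1.53, 0.05 and 0.15 with array weights, centring and quantile normalisation (-1.53 to 0.67). For lithium without LIF, Tbx20 was -0.24 with the mean over probe sets and -0.04 after centring (-0.01 to 0.24), and centring gave -0.11 for Pdgfra (-0.30 to 0.47), -0.10 for Rgs5 (-0.54 to 0.79) and -0.04 for Lmo2 (-0.19 to 0.64). With 1 array left out, Kdr ran from -0.30 to 1.04, Nrp1 from -0.14 to 1.00 and Hand2 from -0.98 to 0.33. For the interaction, Tbx20 was -0.11 with array weights, -0.30 with the mean over probe sets and -0.33 after centring (-0.10 to 0.37), Lmo2 was -1.19 with array weights, -0.09 after centring and -0.10 after quantile normalisation (-0.55 to 1.65), and Pdgfra ran from -0.72 to 0.16. The cause was not tested. Signals near background limit the size of every change from LIF cultures in Aplnr, Kdr, Rgs5, Hand2 and Lmo2.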

Other observations

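Replicate 1 had the highest signal of its group in all 4 conditions for 3 of the 8 genes, Nrp1, Hand2 and Lmo2, and in 3 of 4 conditions for Aplnr, Pdgfra, Rgs5 and Tbx20. Over the 27022 tested probe sets, replicate 1 was highest in all 4 conditions in 12.8%, replicate 2 in 1.77% and replicate 3 in 4.11%. With LIF alone, replicate 1 carried 85.5 of Nrp1, 21.6 of Hand2 and 24.1 of Lmo2, where the other replicates lay between 1.13 and 16.6. Kdr was the exception, with replicate 1 highest in 1 condition.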
